A study of Homo sapiens with 34 samples.

Results

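The 14 germinal centre B-cell type diffuse large B-cell lymphoma (GCB DLBCL) lines of a panel of 34 human lymphoma lines were divided by the EZH2 genotype known for each line. The EZH2-mutant lines were DB, Karpas422, OCI-Ly1, Pfeiffer, SU-DHL-4, SU-DHL-6, SU-DHL-10 and WSU-DLCL2 (n = 8). The EZH2 wild-type lines were DOHH-2, HT, NU-DHL-1, OCI-Ly7, SU-DHL-5 and Toledo (n = 6). The labels gave the pathology of each line and not its EZH2 status, which came from what is known of these lines and cannot be read from expression values. The 20 other lines were 11 mantle cell, 6 activated B-cell type DLBCL and 3 Burkitt lymphoma lines. The labels name no treatment, and each line is an established culture from a single patient, so other lesions that a line carries cannot be told apart from its EZH2 status. Each line gave 1 library, so the errors below measure the spread between lines.

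EZH2 is the catalytic subunit of Polycomb repressive complex 2 (PRC2), which places the methyl marks on lysine 27 of histone H3 that go with silenced genes. Germinal centre B cells raise EZH2 while they divide, and shut down the genes of cell cycle arrest and plasma cell differentiation meanwhile. Heterozygous gain-of-function substitutions in its catalytic domain recur in GCB DLBCL and follicular lymphoma and lead to more of the trimethyl form of the mark. The comparison asks which transcripts separate lines with such a substitution from GCB lines without one.

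Values are variance-stabilised log2 expression levels, on which a gene without a read sits at 4.55. The libraries fell into deep and shallow ones, and both groups had both. The deep libraries were Pfeiffer, SU-DHL-4 and SU-DHL-10 among the mutant lines and HT, SU-DHL-5 and Toledo among the wild-type lines, with 70.8 to 108 M reads (M for 1e6). The shallow libraries were the 5 other mutant lines, with 2.97 to 4.84 M reads, and the 3 other wild-type lines, with 2.55 to 3.27 M. A single read was worth 4.73 to 4.79 in the deep libraries and 5.29 to 5.63 in the shallow ones, so low levels compare poorly across them. Library class was separated by ZNF593, which had reads in every deep library and none in a shallow one. Depth and class went together in these GCB lines but not in all 34 lines. The activated B-cell type line NU-DUL-1 had 0 ZNF593 reads at 22.7 M reads, and the Burkitt line Daudi had 444 at 22.6 M. Deep and shallow thus name the classes here, and depth as their cause was not tested. With limma, 3220 of 19736 genes (16.3%) differed by class at an adjusted p of 0.05. Class therefore entered each fit as a covariate, and differences are mutant minus wild type with that covariate, in log2 units, with the standard error of limma.

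No gene passed the adjusted p of 0.05 between mutant and wild-type lines with limma (0 of 19736 tested, 0%), and voom on the recovered reads also called 0. At an unadjusted p of 0.05, limma gave 766 genes with higher values in mutant lines (3.88%) and 536 with lower values (2.72%). The median difference of all genes was 0.03, and 53.5% of genes had a difference above 0. The smallest adjusted p was 0.059, shared by TBC1D9 (ENSG00000109436, chr4:140620782-140756385), CARD6 (ENSG00000132357, chr5:40841367-40855354), ARHGAP21 (ENSG00000107863, chr10:24583614-24723887) and IGF2BP3 (ENSG00000136231, chr7:23310209-23470491), with positions from RefSeq on GRCh38.p14. When each line was left out in turn the count of genes called ran from 0 to 5. Genes were tested where at least 3 of the 14 lines lay more than 1 log2 unit above the lowest value. CARD6, TRIQK, S1PR1, IFIT3 and CD14 reached that number only with wild-type lines. MEF2B, HOXA7, CD3D, CD8A and DCN reached it only with mutant lines. The filter itself thus favoured a difference in that direction, and the p-values of these genes are no support for it. The sentences below therefore describe values and do not report called changes. In bulk libraries, fewer cells with a transcript and less of it in each cell cannot be told apart. Values of the 14 lines did not overlap between the groups for 7 genes that were higher in all mutant lines (0.0355%) and for 11 that were lower (0.0557%).

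Promoters are shown for 5 of the leading genes whose groups did not overlap, because PRC2 in mammals is mainly found at promoters rich in CG dinucleotides. Each sequence is the 250 bases before the start of the gene in RefSeq (GRCh38.p14), 5' to 3' on the strand of the gene, with CG in capitals. CARD6, ARHGAP21 and PLEKHO1 had lower values in mutant lines, and IGF2BP3 and REL had higher values.
CARD6 (chr5:40841117-40841366, plus strand): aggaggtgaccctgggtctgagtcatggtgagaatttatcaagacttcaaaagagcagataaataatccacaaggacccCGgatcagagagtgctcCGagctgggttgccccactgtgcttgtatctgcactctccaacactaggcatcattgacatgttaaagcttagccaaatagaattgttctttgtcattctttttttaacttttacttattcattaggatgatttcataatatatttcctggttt
ARHGAP21 (chr10:24723888-24724137, minus strand): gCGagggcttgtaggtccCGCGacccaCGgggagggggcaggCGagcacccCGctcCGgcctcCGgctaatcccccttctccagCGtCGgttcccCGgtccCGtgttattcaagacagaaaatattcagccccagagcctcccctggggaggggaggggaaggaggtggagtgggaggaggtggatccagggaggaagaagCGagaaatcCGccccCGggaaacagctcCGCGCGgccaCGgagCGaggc
PLEKHO1 (chr1:150149396-150149645, plus strand): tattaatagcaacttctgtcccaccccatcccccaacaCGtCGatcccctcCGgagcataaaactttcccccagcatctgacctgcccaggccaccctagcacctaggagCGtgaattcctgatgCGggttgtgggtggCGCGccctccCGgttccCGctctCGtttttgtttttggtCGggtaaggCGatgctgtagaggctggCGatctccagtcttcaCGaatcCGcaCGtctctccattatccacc
IGF2BP3 (chr7:23470492-23470741, minus strand): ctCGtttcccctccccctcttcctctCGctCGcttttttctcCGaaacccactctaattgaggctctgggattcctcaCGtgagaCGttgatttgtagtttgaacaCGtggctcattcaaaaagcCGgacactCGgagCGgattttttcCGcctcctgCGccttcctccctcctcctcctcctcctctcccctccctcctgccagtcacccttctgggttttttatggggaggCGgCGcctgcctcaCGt
REL (chr2:60881324-60881573, plus strand): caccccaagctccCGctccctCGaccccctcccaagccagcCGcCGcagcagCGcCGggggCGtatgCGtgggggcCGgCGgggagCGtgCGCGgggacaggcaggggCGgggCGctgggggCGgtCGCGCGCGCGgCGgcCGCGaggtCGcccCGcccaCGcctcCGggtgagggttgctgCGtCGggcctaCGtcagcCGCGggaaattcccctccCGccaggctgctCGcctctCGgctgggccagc

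CG occurred 2 times in the CARD6 promoter, 20 times in that of ARHGAP21, 16 times in PLEKHO1, 15 times in IGF2BP3 and 36 times in REL. Over the 11839 tested genes with a promoter sequence (60.0%), 98.9% of promoters held a CG and the median was 20, with quartiles of 12 and 28. The genes of unadjusted p under 0.05 had medians of 21 where lower in mutant lines (367 with a promoter) and 20 where higher (464 with a promoter). The leading genes had medians of 20 where lower (5 of 8 with a promoter) and 35 where higher (6 of 8 with a promoter, quartiles of 29.5 and 41.25). CARD6 was thus CG-poor and REL CG-rich. No chromatin mark was measured here, so the letters describe the promoters only.

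EZH2 transcript was abundant in every GCB line. It read 12.15 in DB, 12.76 in Karpas422, 12.87 in OCI-Ly1, 11.88 in Pfeiffer, 12.33 in SU-DHL-4, 12.61 in SU-DHL-6, 12.54 in SU-DHL-10 and 12.45 in WSU-DLCL2. In the wild-type lines it read 12.23 in DOHH-2, 11.82 in HT, 11.31 in NU-DHL-1, 12.32 in OCI-Ly7, 12.09 in SU-DHL-5 and 12.74 in Toledo. The groups overlapped, since Toledo lay above 6 of the 8 mutant lines and Pfeiffer below 4 of the 6 wild-type lines. Mutant lines averaged 12.45 ± 0.32 (SD, n = 8) and wild-type lines 12.08 ± 0.49 (SD, n = 6). The difference of 0.36 did not exceed the spread between lines (two-sided exact permutation test within library class over 1120 arrangements, p = 0.14). It was 0.03 in the deep libraries (exact p = 0.90) and 0.62 in the shallow ones (exact p = 0.071). With 1 line left out it ran from 0.16 without NU-DHL-1 (exact p = 0.42) to 0.49 without Toledo (exact p = 0.029). Only without Toledo was the exact p under 0.05. The other pathologies covered the same range, with medians of 12.47 in activated B-cell type DLBCL, 12.65 in Burkitt and 12.32 in mantle cell lymphoma.

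**Figure D1:**
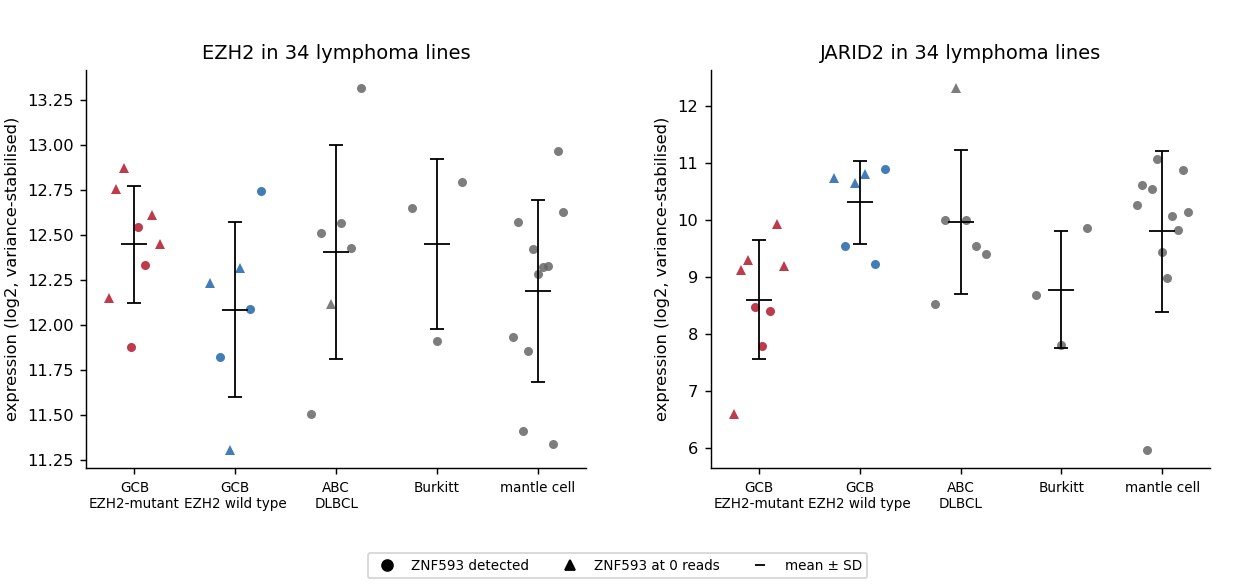
Expression of EZH2 (left) and JARID2 (right) on the variance-stabilised log2 scale in each of the 34 lines, by group, with mean ± SD. Triangles are libraries without a ZNF593 read. EZH2 of mutant and wild-type GCB lines overlapped, and JARID2 averaged 8.60 in mutant and 10.31 in wild-type lines.

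The other core subunits of PRC2 differed little between the groups. EZH1, the alternative catalytic subunit, differed by 0.42 ± 0.25, EED, which binds the mark, by 0.31 ± 0.40, and SUZ12, the scaffold, by -0.26 ± 0.24. The histone chaperones RBBP4 and RBBP7 differed by 0.07 ± 0.26 and -0.13 ± 0.26. None of the 6 core subunits had an unadjusted p under 0.05, and their median difference was 0.19.

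Among the accessory subunits, JARID2, which joins PRC2 to chromatin and aids its activity, stood lowest in mutant lines. It read 6.60 in DB at the lowest, 8.79 at the median and 9.93 in SU-DHL-6 at the highest, against 9.22 in SU-DHL-5, 10.69 and 10.90 in Toledo in wild-type lines. Only SU-DHL-6 and OCI-Ly1 among the mutant lines reached the wild-type range. The difference was -1.80 ± 0.45 (adjusted p = 0.48), of like size in deep (-1.67) and shallow (-1.90) libraries. AEBP2, its partner in the same form of the complex, differed by -0.44 ± 0.20 (adjusted p = 0.74). The polycomb-like subunits MTF2, PHF1 and PHF19 differed by 0.08 ± 0.22, 0.17 ± 0.33 and -0.12 ± 0.31. EPOP differed by -0.47 ± 0.38, LCOR by -0.30 ± 0.25 and LCORL by -0.04 ± 0.48. EZHIP, an inhibitor of PRC2, was not tested, as 6 of 8 mutant and 5 of 6 wild-type lines had no read of it.

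The PRC1 list held 21 tested genes of Polycomb repressive complex 1, some forms of which read the PRC2 mark. Of these genes, 4 had an unadjusted p under 0.05, all with lower values in mutant lines (2.72% of all genes). These were BMI1 (-1.36 ± 0.59), PCGF5 (-1.64 ± 0.67), PHC1 (-1.08 ± 0.43) and RYBP (-0.79 ± 0.35), with adjusted p of 0.70 to 0.73. BMI1 read 13.78 in DOHH-2 and at most 10.05 in the 13 other lines, so that line stood alone. The list's median difference was -0.28. Of 24 other chromatin regulators, 3 had an unadjusted p under 0.05, against 3.88% of all genes higher and 2.72% lower in mutant lines. KMT2D, a histone methyltransferase, differed by -0.87, the acetyltransferase CREBBP by -0.52 and the transcription factor MEF2B by 1.45. MEF2B passed the filter on low values only through mutant lines, so its p is no support for its direction.

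TBC1D9, a Rab GTPase-activating protein, had the largest gap in means among the 4 genes of the smallest adjusted p. Mutant lines read 4.55 at the lowest (DB and SU-DHL-10, 0 reads), 5.94 at the median and 7.14 in WSU-DLCL2. Wild-type lines read 7.36 in SU-DHL-5, 10.21 at the median and 12.88 in NU-DHL-1, so the groups did not overlap. In reads, mutant lines had 0 to 62 and wild-type lines 57 to 4038. The difference was -4.68 ± 0.68, and it was -3.78 in deep and -5.39 in shallow libraries. Burkitt lines read 5.16 to 6.82, inside the mutant range. Activated B-cell type DLBCL lines read 4.55 to 9.84 (median 6.27) and mantle cell lines 5.05 to 12.93 (median 10.24), each reaching into both ranges.

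CARD6, a protein with a caspase recruitment domain, read 4.55 to 5.89 in mutant lines (median 5.38) and 6.55 to 9.74 in wild-type lines (median 7.98). DB and OCI-Ly1 had 0 reads, only Karpas422 of the mutant lines lay past the filter level, and HT was the wild-type line nearest to the mutant range. CARD6 passed the filter on low values only through wild-type lines, so its difference of -2.79 is a description. Its medians were 5.26 in mantle cell, 6.98 in Burkitt and 8.05 in activated B-cell type DLBCL lines. ARHGAP21, a GTPase-activating protein, read 4.55 to 7.65 (median 6.21) against 8.15 to 11.26 (median 9.41). DB and SU-DHL-10 had no read of it, while DOHH-2 and NU-DHL-1 stood highest. The difference was -3.68 ± 0.57 (adjusted p = 0.059).

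TRIQK, a small membrane protein gene on chromosome 8, had 0 reads in all 8 mutant lines. Among wild-type lines it had 74 reads in DOHH-2, 566 in HT, 20 in NU-DHL-1, 0 in OCI-Ly7, 1695 in SU-DHL-5 and 1175 in Toledo. These are 6.74 to 23.3 per M reads of the library in the 5 lines that had any. A count of 0 allows up to 3 reads, or 0.031 to 0.042 per M in the deep and 0.62 to 1.01 per M in the shallow mutant libraries (counting error only). OCI-Ly7 was thus the only wild-type line in the mutant range. TRIQK passed the filter on low values only through wild-type lines, so its values are a description and no test is given.

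PLEKHO1, a membrane-associated adaptor, read 6.27 in SU-DHL-4, 8.27 at the median and 10.63 in DB, against a narrow 11.26 to 12.23 in wild-type lines. The difference was -3.50 ± 0.63 (adjusted p = 0.16). ST3GAL1, a sialyltransferase of O-glycans, read 5.87 to 8.76 in mutant lines (median 7.93) and 9.76 to 12.49 in wild-type lines (median 10.32), the widest space between the groups (0.998) of any gene without overlap. Its difference was -2.85 ± 0.52 (adjusted p = 0.16). Burkitt lines lay at or below mutant levels for both genes, with 5.60 to 7.16 for PLEKHO1 and 7.20 to 8.06 for ST3GAL1. Activated B-cell type and mantle cell medians were 11.52 and 11.61 for PLEKHO1, and 10.51 and 9.59 for ST3GAL1. CTDSP2, a small C-terminal domain phosphatase, and OTUD1, a deubiquitinase, overlapped in 1 or more lines and differed by -2.33 ± 0.45 (adjusted p = 0.27) and -2.24 ± 0.46 (adjusted p = 0.34).

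**Figure D2:**
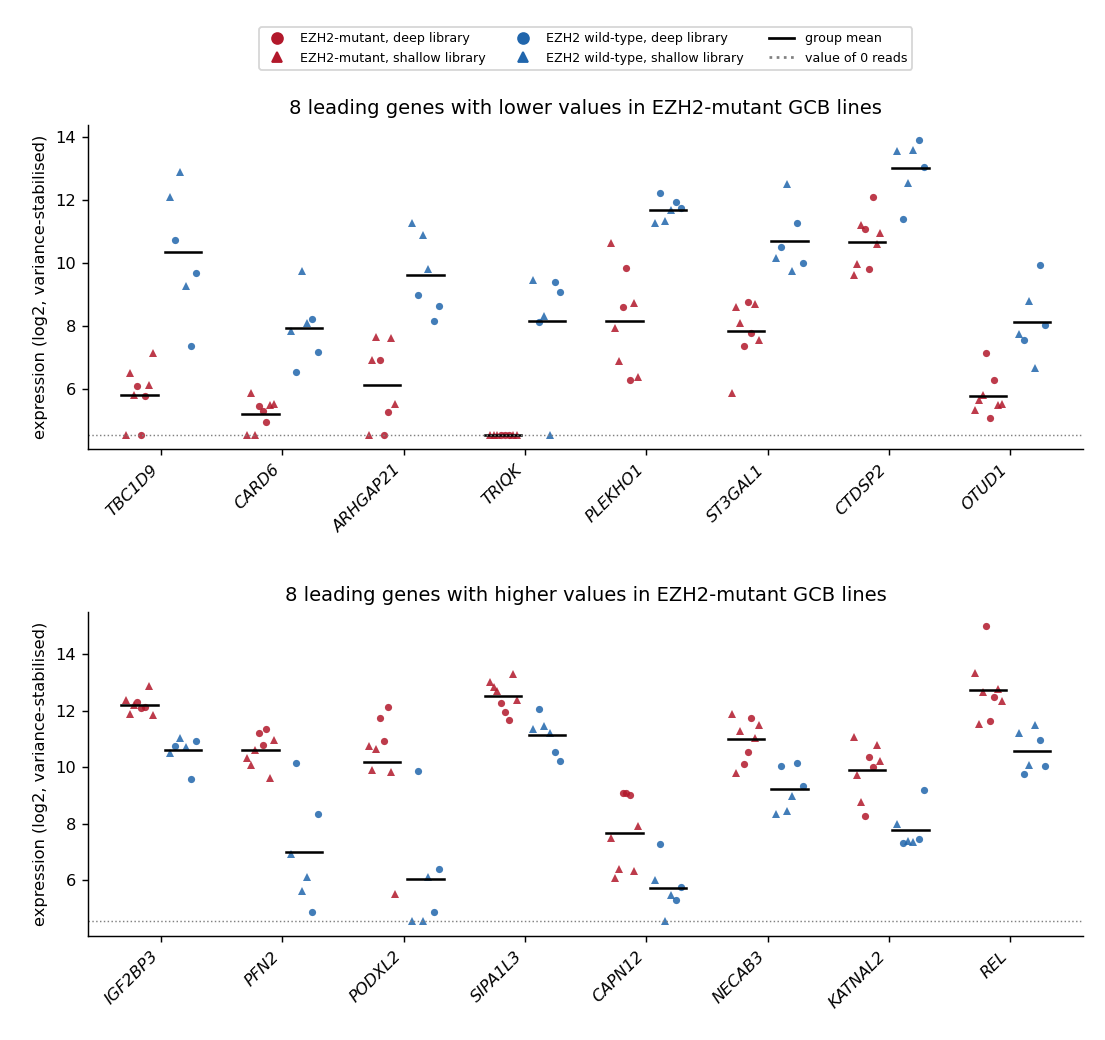
Expression (log2, variance-stabilised) of the 8 leading genes with lower (top) and the 8 with higher (bottom) values in mutant lines, each point a line, circles deep and triangles shallow libraries, with group means. Mutant and wild-type points were separate for TBC1D9, CARD6, ARHGAP21, PLEKHO1, ST3GAL1, IGF2BP3 and REL, and TRIQK had no read in any mutant line.

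IGF2BP3, an oncofetal RNA-binding protein that steadies bound transcripts, had the smallest adjusted p among genes with higher values in mutant lines. Mutant lines read 11.85 in WSU-DLCL2 at the lowest, 12.17 at the median and 12.88 in SU-DHL-6 at the highest. Wild-type lines read 9.61 in SU-DHL-5, 10.74 at the median and 11.06 in NU-DHL-1, so the groups did not overlap. The difference was 1.59 ± 0.24 (adjusted p = 0.059), 1.75 in deep and 1.47 in shallow libraries. The other pathologies had medians of 12.04 in activated B-cell type DLBCL (10.64 to 12.39), 11.79 in Burkitt (11.52 to 11.88) and 12.03 in mantle cell lines (9.77 to 12.87). The lowest activated B-cell type and mantle cell lines lay in the wild-type range, and no Burkitt line did. For this gene the wild-type GCB lines thus had the lowest group median.

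REL, the NF-kB subunit c-Rel, read 11.54 in Karpas422, 12.58 at the median and 14.999 in Pfeiffer, against 9.77 in HT, 10.52 and 11.51 in OCI-Ly7. The groups came within 0.03 of each other, between Karpas422 and OCI-Ly7. The difference was 2.13 ± 0.49 (adjusted p = 0.43). PFN2, an actin-binding profilin, read 9.63 to 11.35 in mutant lines, while wild-type lines spread from 4.86 in SU-DHL-5 to 10.16 in HT. Its difference was 3.76 ± 0.62 (adjusted p = 0.093). PODXL2, a sialomucin relative, read 9.85 to 12.14 in 7 mutant lines and 5.52 in WSU-DLCL2, against 4.55 to 6.41 in 5 wild-type lines and 9.87 in HT. Its difference was 4.40 ± 0.86 (adjusted p = 0.27). HT was the wild-type line nearest to mutant levels for both PFN2 and PODXL2.

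The 4 other leading genes with higher values were SIPA1L3 (1.29 ± 0.27), CAPN12 (2.15 ± 0.46), NECAB3 (1.82 ± 0.40) and KATNAL2 (2.10 ± 0.47), at adjusted p of 0.34 to 0.37. SIPA1L3 encodes a Rap GTPase-activating protein, CAPN12 a calpain and KATNAL2 a katanin-like microtubule-severing protein. All 16 leading genes had the same sign in deep and shallow libraries. They were chosen on this contrast, so their direction is a description and no support for it. No gene passed an interaction test of status with library class either (limma, 0 at an adjusted p of 0.05, 807 at an unadjusted p of 0.05, smallest adjusted p 0.18).

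A list of 14 genes reported as repressed by EZH2 in B cells had a median difference of -1.07, against 0.03 for all genes tested. Of the 14, 10 lay below 0 and 4 above, where 53.5% of all genes tested lay above 0. No member passed the adjusted threshold, and 5 had an unadjusted p under 0.05, all lower in mutant lines (2.72% of all genes). The median was -0.38 in the deep and -1.57 in the shallow libraries. The mean level of the list ran from 7.37 in DB to 9.42 in Pfeiffer in mutant lines and from 7.47 in HT to 10.01 in Toledo in wild-type lines, so the groups overlapped.

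SESN1, a stress-induced sestrin that restrains mTORC1, came nearest to a call in this list. It read 5.52 in WSU-DLCL2, 6.92 at the median and 7.81 in Karpas422, against 6.83 in HT, 9.09 and 10.58 in NU-DHL-1. HT was the only wild-type line inside the mutant range. The difference was -2.27 ± 0.53 (adjusted p = 0.43), -1.52 in deep and -2.88 in shallow libraries.

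The cyclin-dependent kinase inhibitors differed in both directions. CDKN1B, which encodes p27, read 7.75 to 10.51 in mutant and 9.60 to 11.64 in wild-type lines and differed by -1.45 ± 0.43 (adjusted p = 0.57). CDKN1A, which encodes p21, differed by -1.24 ± 1.15 with values from 4.55 to 9.51 and from 4.55 to 11.88. CDKN2A, a classical Polycomb target that encodes p16 and ARF, had a difference of the opposite sign (2.22 ± 1.12, adjusted p = 0.78). It read 10.72 to 12.52 in 7 mutant lines and 6.36 in DB, and 10.87 to 12.001 in 4 wild-type lines, but had 0 reads in DOHH-2 and NU-DHL-1. The neighbouring MTAP also had 0 reads in those 2 wild-type lines and read 10.13 to 11.31 in the 12 others. CDKN2B, next to CDKN2A, differed by 0.63 ± 0.53.

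PRDM1, which encodes Blimp-1 and drives plasma cell fate, read at most 6.83 in 7 mutant lines and 9.86 in Pfeiffer. Wild-type lines ran from 5.12 in HT through 5.94 in SU-DHL-5, 7.64 in Toledo, 8.19 in NU-DHL-1 and 10.74 in OCI-Ly7 to 11.63 in DOHH-2. The difference was -2.37 ± 1.02 (adjusted p = 0.72), made of 0.31 in deep and -4.52 in shallow libraries. IRF4, a second plasma cell regulator, was either high or low. It read 12.51 to 12.90 in SU-DHL-6, Pfeiffer and OCI-Ly1 and 12.72 to 14.45 in NU-DHL-1, OCI-Ly7, Toledo and DOHH-2. The 7 other lines, 5 mutant and 2 wild type, read 4.55 to 6.58, and the difference was -2.88 ± 1.89 (adjusted p = 0.84).

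NLRC5, the activator of MHC class I genes, read 4.55 in SU-DHL-6 and WSU-DLCL2 (0 reads) and up to 11.26 in Karpas422, against 7.10 in HT to 12.51 in OCI-Ly7. Its difference was -2.64 ± 1.18 (adjusted p = 0.73), with 0.38 in deep and -5.06 in shallow libraries. CIITA, the activator of MHC class II genes, read 6.89 in DB and 10.46 to 13.78 in the other mutant lines, against 9.38 to 14.01, and differed by -0.64 ± 0.97. HEXIM1, an inhibitor of transcription elongation, differed by -0.90 ± 0.40, TNFRSF21, a death receptor, by -2.49 ± 1.17 and FBXO32, a ubiquitin ligase subunit, by -0.40 ± 0.46. TXNIP, a thioredoxin inhibitor, differed by 0.01 ± 0.65 and ABAT, a GABA transaminase, by 0.87 ± 0.48.

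**Figure D3:**
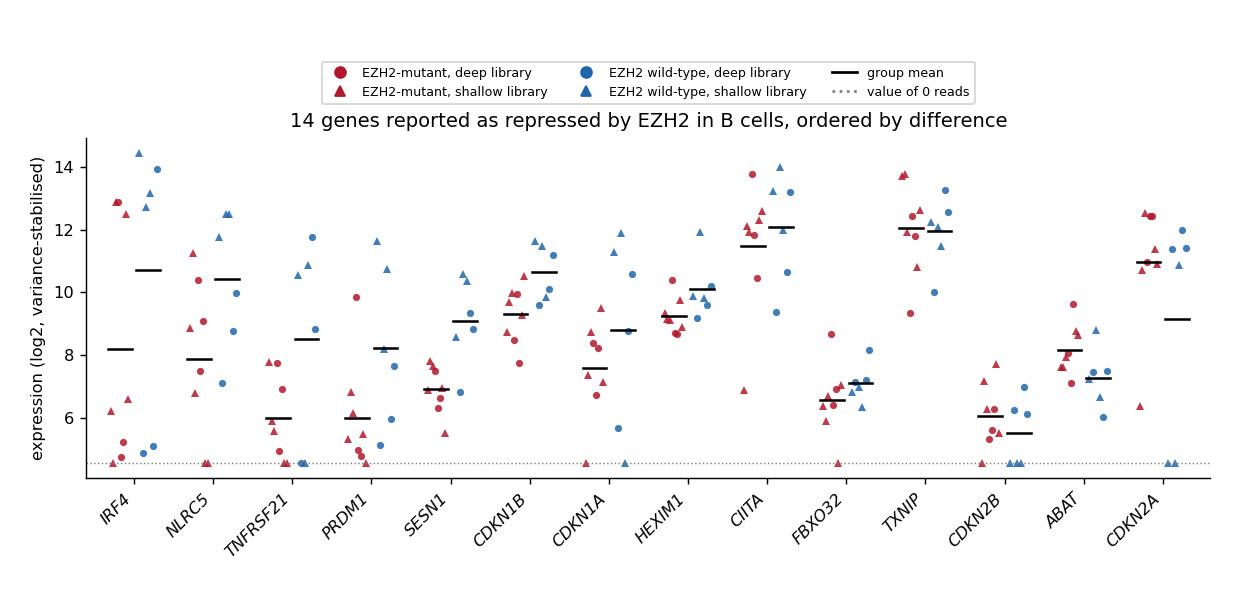
Expression (log2, variance-stabilised) of the 14 genes reported as repressed by EZH2 in B cells in each GCB line, ordered by their difference, circles deep and triangles shallow libraries, with group means. Mutant and wild-type points overlapped for every gene, and SESN1 overlapped through HT alone.

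The germinal centre list checked the pathology label. Its 18 genes, none called, had a median difference of 0.80, with -0.01 in deep and 1.38 in shallow libraries. Of them, 15 lay above 0, against 53.5% of all genes. BCL6, a repressor on which germinal centre cells depend, read 13.23 to 14.65 in all 8 mutant lines. Wild-type lines read 14.30 in HT, 14.55 in SU-DHL-5, 12.87 in OCI-Ly7, 9.93 in Toledo, 9.57 in NU-DHL-1 and 4.55 in DOHH-2, which had 0 reads. The difference was 3.15 ± 1.16 (adjusted p = 0.67). MME, which encodes CD10, read 9.98 to 13.83 in mutant and 11.07 to 13.16 in 5 wild-type lines, with 6.05 in NU-DHL-1. BCL6 thus lay below the median of the activated B-cell type lines (11.62) in DOHH-2, NU-DHL-1 and Toledo, and MME below theirs (7.24) in NU-DHL-1. The same 3 wild-type lines were among those high in IRF4. The BCL6 values of these 3 lines, and MME in NU-DHL-1, went against the GCB label. High IRF4 did so too but was not particular to these 3 lines. It was also high in the wild-type line OCI-Ly7 (13.17) and in the mutant lines OCI-Ly1 (12.90), Pfeiffer (12.89) and SU-DHL-6 (12.51). In NU-DHL-1 (12.72) it lay below the lowest activated B-cell type line (13.02). MME in Toledo (13.16) and DOHH-2 (11.59) went with the GCB label. The lines kept their labels here.

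RGS13, SERPINA9 and MYBL1, further germinal centre markers, differed by 2.32 ± 1.57, 2.31 ± 1.81 and 1.76 ± 1.05. No germinal centre gene besides BCL6 and MEF2B had an unadjusted p under 0.05 (3.88% of all genes higher, 2.72% lower). MEF2B passed the filter on low values only through mutant lines.

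The plasma cell and exit list had a median difference of -1.01 over 15 genes, with 0.31 in deep and -2.12 in shallow libraries. Of these, 0 were called and 12 lay below 0, where 53.5% of all genes lay above 0. PRDM1, DERL3 (-1.19 ± 0.47) and TNFRSF13B (-3.42 ± 1.31) had an unadjusted p under 0.05, all lower in mutant lines (2.72% of all genes). DERL3 is part of the degradation machinery of the endoplasmic reticulum and TNFRSF13B encodes the receptor TACI. TNFRSF13B read over 10 in OCI-Ly1, SU-DHL-6, DOHH-2, NU-DHL-1, OCI-Ly7 and Toledo, which are 6 of the 7 lines high in IRF4, and 5.99 in Pfeiffer, the seventh. XBP1, a driver of secretion, read 14.57 in Pfeiffer and 13.80 in OCI-Ly7 and differed by -1.95 ± 1.07.

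**Figure D4:**
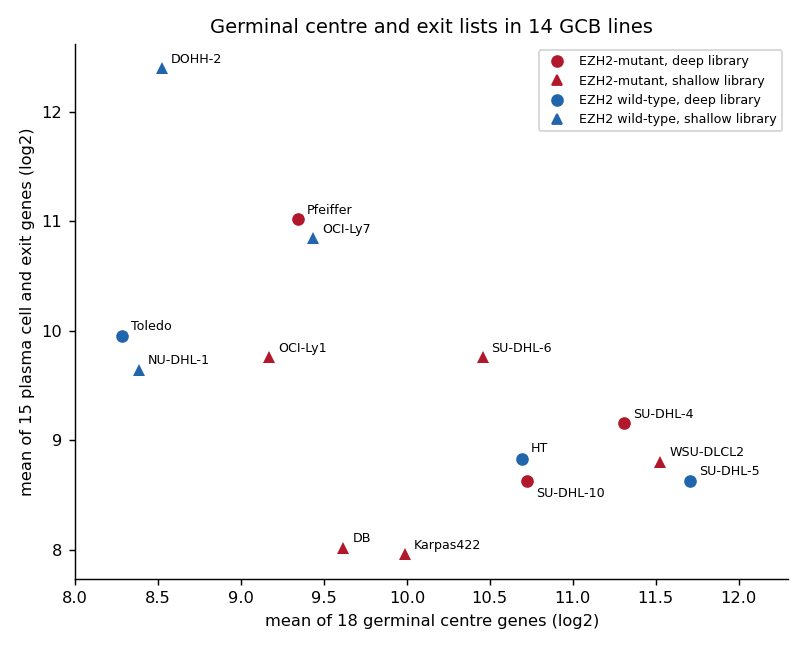
Mean level (log2) of the 18 germinal centre genes against that of the 15 plasma cell and exit genes in each GCB line, circles deep and triangles shallow libraries. Toledo (8.28), NU-DHL-1 (8.38) and DOHH-2 (8.52) had the lowest germinal centre levels, DOHH-2 the highest exit level (12.40), SU-DHL-5 the highest germinal centre level (11.70), and the wild-type lines HT and OCI-Ly7 lay inside the mutant range on both axes.

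The antigen presentation lists had medians below 0 in the shallow and above 0 in the deep libraries. For 17 MHC class I genes the median difference was -0.69, with medians of 0.22 in deep and -1.12 in shallow libraries. Of these genes, 16 lay below 0, where 53.5% of all genes lay above 0. HLA-C read 5.87 in DB, 9.43 in WSU-DLCL2, 11.17 at the median and 14.32 in Pfeiffer in mutant lines, against 12.40 to 14.26 in wild-type lines. All mutant lines except Pfeiffer lay below the wild-type range, and the difference was -2.45 ± 0.94 (adjusted p = 0.69). HLA-B read 6.36 in DB and 15.80 in Pfeiffer, and B2M, the invariant light chain, 12.75 and 15.78. HLA-C and NLRC5 alone had an unadjusted p under 0.05, both lower in mutant lines (2.72% of all genes). Sequence similarity among HLA genes may have split reads between them.

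For 17 MHC class II genes the median difference was -0.30 and 0 had an unadjusted p under 0.05. The medians were 0.95 in deep and -1.89 in shallow libraries, the widest split of any list. The mean list level was 7.35 in OCI-Ly1 and 8.88 in DB but 11.37 to 13.72 in the 6 other mutant lines, against 11.09 to 12.37 in wild-type lines. HLA-DRA had 0 reads in OCI-Ly1 and read 6.60 in DB, 13.27 to 17.39 in the other mutant lines and 13.17 to 15.70 in wild-type lines. Thus 2 of 8 mutant lines set the low values, both in shallow libraries. Whether status differences depend on class was tested by the interaction above, which no gene passed.

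The interferon response list had 16 of 17 genes below 0, where 53.5% of all genes lay above 0. Its median was -0.42, with -0.48 in deep and -0.59 in shallow libraries. IRF1, an interferon-induced transcription factor, read 6.98 to 7.55 in the 5 shallow and 9.63 to 10.26 in the 3 deep mutant libraries, against 7.81 to 11.18 in wild-type lines. Its difference was -1.46 ± 0.50 (adjusted p = 0.64). IFIT3, an antiviral effector, read 13.33 in DOHH-2 and at most 8.81 in the other GCB lines, and differed by -2.40. It passed the filter on low values only through wild-type lines.

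A pair of B-cell surface molecules had higher values in mutant lines. MS4A1, which encodes CD20, read 13.86 in OCI-Ly1, 15.37 at the median and 16.70 in WSU-DLCL2, against 10.67 in HT, 13.87 and 14.97 in OCI-Ly7. The difference was 2.09 ± 0.67 (adjusted p = 0.60). CD37, a tetraspanin, differed by 1.63 ± 0.49 (adjusted p = 0.57), with HT (14.85) above 5 of the 8 mutant lines. These were the only 2 of 10 B-cell identity genes with an unadjusted p under 0.05 (3.88% of all genes higher). The list's median was 0.09.

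CD86, a costimulator of T cells, read 7.85 in Karpas422 and 10.22 to 11.90 in the other mutant lines, against 5.94 to 10.13. Its difference was 2.08 ± 0.74 (adjusted p = 0.64). CD70, the ligand of CD27, differed by -1.22 ± 0.48 (adjusted p = 0.70). The 14 other T-cell contact genes had no unadjusted p under 0.05, and the list's median was -0.14.

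Among 10 positioning receptors and partners, S1PR4 and S1PR1, receptors for sphingosine 1-phosphate, had an unadjusted p under 0.05. Both were lower in mutant lines (2.72% of all genes). S1PR4 read 4.55 to 6.50 in mutant lines, and 12.69 in Toledo, 10.16 in DOHH-2, 9.96 in NU-DHL-1, 7.52 in OCI-Ly7, 5.87 in HT and 5.22 in SU-DHL-5. Its difference was -3.32 ± 0.98 (adjusted p = 0.57). S1PR1 read at most 6.08 in mutant lines and 11.16, 9.92 and 8.84 in DOHH-2, Toledo and NU-DHL-1, with a difference of -2.42. It passed the filter on low values only through wild-type lines. HT, SU-DHL-5 and, for S1PR1, OCI-Ly7 lay in the mutant range. Of 18 B-cell receptor signalling genes, CR2 (-1.67 ± 0.73) and PLCG2 (0.80 ± 0.37) had an unadjusted p under 0.05. They went in opposite directions, where 3.88% of all genes were higher and 2.72% lower at such a p.

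Proliferation genes and drivers of S phase entry had medians near that of all genes. The median difference was -0.03 over 15 proliferation genes, of which 0 had an unadjusted p under 0.05, and 0.07 over 12 drivers of S phase entry. MYC differed by 0.74 ± 0.29 (adjusted p = 0.69), 1.43 in deep and 0.19 in shallow libraries. The 9 cell cycle inhibitors had a median difference of -0.50, with -0.70 in deep and -0.07 in shallow libraries. Of them, CDKN1B and RBL2 (0.67 ± 0.29) had an unadjusted p under 0.05, in opposite directions (3.88% of all genes higher, 2.72% lower). The 16 BCL2 family genes and the 18 tested NF-kB target genes had medians of 0.03 and -0.05 and none with such a p. BCL2A1, an NF-kB target that opposes cell death, read 13.24 in Pfeiffer, the GCB line highest in REL, and at most 8.76 in any other GCB line. It reached 13.72 in activated B-cell type, 11.54 in Burkitt and 14.96 in mantle cell lines. A link to REL was not tested.

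Developmental regulators are the best known Polycomb targets. Of the 27 listed, 18 passed the filter on low values. Of their differences, 7 lay above 0 (53.5% over all genes) and 11 below 0, with a median of -0.16. MEIS2 read 10.004 to 11.40 in mutant and 7.58 to 10.08 in wild-type lines (1.34 ± 0.38, adjusted p = 0.57). HOXA7 read 11.06 in SU-DHL-10, 9.91 in SU-DHL-4 and 8.58 in SU-DHL-6, and differed by 2.19. It passed the filter on low values only through mutant lines. MEIS2 and HOXA7 were the only members with an unadjusted p under 0.05, and both had higher values in mutant lines (3.88% of all genes).

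**Figure D5:**
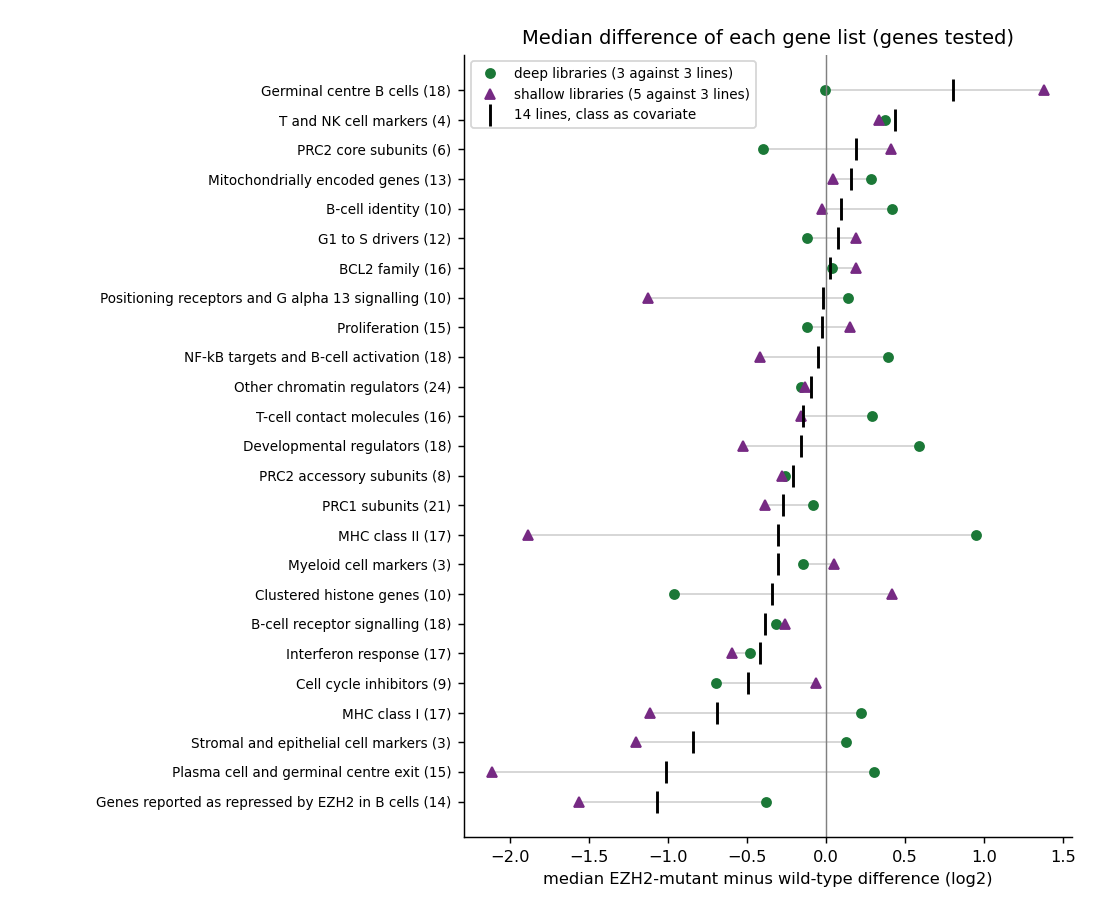
Median mutant minus wild-type difference (log2) of each of the 25 gene lists in the deep libraries (circles), the shallow libraries (triangles) and all 14 lines with class as covariate (bars). The list of genes reported as repressed by EZH2 was lowest (-1.07) and the germinal centre list highest (0.80), and the MHC class II list differed most between the classes.

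Markers of other cell types were low in most lines. The mean level of the T and NK cell list (8 genes) was 4.84 to 6.63 in mutant and 4.66 to 5.21 in wild-type lines, that of the myeloid list (6 genes) 4.71 to 5.12 and 4.55 to 5.04, and that of the stromal and epithelial list (8 genes) 4.83 to 7.55 and 4.55 to 5.54. CD2 had 0 reads in all mutant lines and S100A8 in all 14 lines. Single genes were high in single lines, with CD8A at 14.74 and EPCAM at 12.86 in Pfeiffer, CD3G at 12.13 in Karpas422, and DCN at 13.64 in Karpas422, 11.38 in SU-DHL-4 and 11.03 in SU-DHL-5. The list of 13 mitochondrially encoded genes had a median difference of 0.16 and that of 10 clustered histone genes -0.34, with 0 unadjusted p under 0.05 in either. The part of these in the differences above was not tested.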

How the data were processed

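RNA of 34 lymphoma lines had been sequenced at several times, 1 library a line. The deposited table of the authors holds variance-stabilised log2 values for 31975 genes. The submitters' processing notes name STAR 2.5.3a, R 3.6.1, DESeq2 1.26.0 and GRCh38 without roles. The read counter, annotation and strand setting are not given in the sources used here. Inverting the transform gave whole reads for 100% of values (tolerance 0.05), from which depth was taken. The transform compresses differences of low genes. Symbols were matched for 31574 identifiers.

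Genes more than 1 log2 unit above the lowest value in at least 3 of the 14 GCB lines (19736) were fitted with limma 3.58.1 in R 4.3.3, with status and library class as terms, an intensity-dependent prior and Benjamini-Hochberg adjustment at 0.05. EZH2 alone was tested by exact permutation within class (Python 3.11.15, NumPy 2.4.6). The fit was tested on simulated data. Named were genes past the threshold or, as none passed, the 8 with a symbol and the smallest p in each direction, the PRC2 genes, the list of genes reported as repressed by EZH2, and the member of each other list with the smallest p. Other genes named, list members included, were chosen after their values were seen. Members and the 25 lists were chosen with earlier results of these data known. RefSeq promoters (GRCh38.p14) were matched by symbol. FCGR3A, KRT19 and H3C2 were not analysed here, and 1 member of the germinal centre list is not reported here. Alternatives changed the covariate, lines, scaling, filter, prior, weights or tool.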

Additional observations from a re-analysis of the deposited data

Results flagged for a closer look

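In 14 of 130 groups of values, over 65 named genes, 1 line lay apart from the rest of its group by Dixon's test, where chance marks about 1 in 20 groups. Among mutant lines these were WSU-DLCL2 for PODXL2 (5.52), SU-DHL-4 for EZHIP (5.24), DB for CDKN2A (6.36), Karpas422 for CD86 (7.85), and Pfeiffer for PRDM1 (9.86), CD14 (6.14) and PDGFRB (7.09). Pfeiffer also had the highest level of the plasma cell and exit list among mutant lines (11.02). Among wild-type lines they were SU-DHL-5 for IGF2BP3 (9.61), EZHIP (5.03) and CD3D (5.46), HT for PODXL2 (9.87), Toledo for KATNAL2 (9.21), OCI-Ly7 for TRIQK (4.55) and NU-DHL-1 for HEXIM1 (11.94). OCI-Ly7 was low for TRIQK, with 0 reads of it.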

How the results depend on the processing

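The 0 genes called became 16 with all 34 lines in the fit, 5 in the shallow libraries alone, 1 with median-centred and 4 with quantile-normalized libraries, and 4 with library weights. It stayed 0 in the deep libraries alone, without the class term, with no filter, a stricter filter, a constant prior or voom. Leaving out 1 line gave 0 to 5 calls, with 5 without HT, 4 without OCI-Ly7 or SU-DHL-5, 2 without Pfeiffer, and 1 without Karpas422 or NU-DHL-1. The interaction with class gave 2 calls with library weights and 0 to 12 with 1 line left out, 12 of them without OCI-Ly7, 5 without Toledo and 1 without OCI-Ly1 or WSU-DLCL2. The cause was not tested.

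With 1 line left out the EZH2 difference ran from 0.16 (without NU-DHL-1, exact permutation p = 0.42) to 0.49 (without Toledo, exact permutation p = 0.029). It was 0.032 in the deep and 0.62 in the shallow libraries alone. The 16 leading genes kept their sign in 336 of 336 alternative values, 20 of them past the threshold. Of the values of all 63 named genes, 1282 of 1323 kept their sign. In the deep libraries alone the sign changed for EED (-0.64), RBBP4 (-0.15), MTF2 (-0.085), PHF1 (-0.65), PHF19 (0.48), EPOP (0.35), CDKN2B (-0.70), PRDM1 (0.31), CIITA (0.95), NLRC5 (0.38), TXNIP (-0.76) and PDGFRB (0.32), and in the shallow ones for SUZ12 (0.066), RBBP7 (0.36) and LCORL (0.046). With voom it changed for EED (-0.12), PHF1 (-0.32), PHF19 (0.033) and TXNIP (-0.14), and for TXNIP also with all lines (-0.072) and median centring (-0.031). With 1 line left out the ranges that crossed 0 were RBBP4 (-0.131 to 0.279), RBBP7 (-0.307 to 0.00107), MTF2 (-0.0348 to 0.208), PHF1 (-0.0929 to 0.323), PHF19 (-0.326 to 0.142), LCORL (-0.234 to 0.263), TXNIP (-0.29 to 0.453). None of these was called. The median of the genes reported as repressed by EZH2 ran from -1.57 to -0.38 and that of the germinal centre list from -0.01 to 1.38. List medians moved by 1 SD between lines or more in 7 of 500 values. No paired analysis was possible because each line is its own culture and replicate numbers only name lines.

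With 2.55 to 4.84 M reads in 8 of the 14 libraries, genes of few reads could not be told from absent ones there.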

Other observations

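Some genes outside the lists had values that were separate or nearly separate between the groups, and were chosen after their values were seen. Over all genes tested, 0.0355% were higher and 0.0557% lower in mutant lines without overlap. A link of such separation to EZH2 status was not tested. TRBC2, a constant segment of the T-cell receptor beta chain, read 4.55 to 7.87 in mutant lines (median 5.25). Wild-type lines read 11.99 in Toledo, 10.83 in OCI-Ly7, 10.81 in DOHH-2, 10.78 in SU-DHL-5, 10.09 in NU-DHL-1 and 4.88 in HT. HT alone lay in the mutant range, and the difference was -4.27 ± 0.97 (limma, adjusted p = 0.41). Of the T and NK cell list, 3 of 4 tested genes had higher values in mutant lines, against 53.5% of all genes. CD3D and CD8A, which are among the 3, passed the filter on low values only through mutant lines. The count is therefore no support for a direction. The list's median difference was 0.44, with CD8A at 14.74 in Pfeiffer. The 4 genes not tested were at low values in most lines, apart from CD3G at 12.13 in Karpas422. Their part in the TRBC2 values was not tested.

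TSHZ1, a zinc finger transcription factor, read 7.16 to 9.51 in mutant and 9.74 to 11.17 in wild-type lines without overlap (-1.63 ± 0.38, adjusted p = 0.43). UBL3, a ubiquitin-like protein, read 7.15 to 8.81 and 8.92 to 9.91 (-1.15 ± 0.34, adjusted p = 0.57). DEGS1, a desaturase of ceramide synthesis, read 9.87 to 10.88 and 10.89 to 11.58 (-0.65 ± 0.21, adjusted p = 0.60). FEZ2 was higher in mutant lines, with 9.70 to 10.17 against 8.84 to 9.68 (0.63 ± 0.21, adjusted p = 0.62). The space between the groups was 0.23 for TSHZ1, 0.11 for UBL3, 0.0037 for DEGS1 and 0.015 for FEZ2.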
